A study of Mus musculus with 3 samples.

Results

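The translation initiation factor genes of the mouse were followed in single cells of the adult cochlea after the transgenes for Myc and the Notch intracellular domain (NICD) were switched on. All genes whose symbol begins with Eif and a digit were taken, without pseudogenes and without the Y-linked Eif2s3y, which gave 55 of the 31053 genes in the count tables. All groups carried rtTA/tet-on-Myc/tet-on-NICD, that is, a transcription factor that binds DNA when doxycycline (Dox) is present and 2 transgenes under its control. Cochleae of animals aged 4 to 6 weeks were cultured whole, and the sensory epithelium was then dissected and dissociated. The control library came from cultures given sterile water for 4 days, and the 2 Dox libraries from cultures given Dox at 2 µg/ml for 4 days. Each library pooled 4 cultures. The promoter that drives rtTA is not named in the available sources. No library of Dox-treated cultures without the transgenes was analysed here, so effects of the drug and of the transgenes cannot be told apart, nor can the effects of Myc and NICD.

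Initiation factors bring the small ribosomal subunit, the initiator tRNA and the mRNA together at a start codon. eIF2 carries the initiator tRNA, eIF2B recharges eIF2 with GTP, and 4 kinases slow that step under stress by phosphorylating eIF2. eIF3 is a large scaffold on the small subunit, and eIF4E, eIF4G and eIF4A form the complex that binds the mRNA cap and unwinds the leader, while the 4E-BP proteins sequester eIF4E until mTORC1 phosphorylates them. eIF1, eIF1A and eIF5 act in start codon choice, eIF5B joins the large subunit, eIF5A assists peptide bond formation at difficult sequences and eIF6 keeps free large subunits apart. MYC is known to bind and raise many genes of ribosome production and translation in dividing cells.

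The libraries held 512 (control), 788 (Dox replicate 1) and 1095 (Dox replicate 2) barcodes with 5436731, 20309102 and 33385927 UMIs, the tags that mark single captured RNA molecules. Many barcodes occurred in more than one library. Control and Dox replicate 1 shared 101 of the barcodes that passed the quality filters, and in 61 of these the control copy was the smaller, with a median of 158-fold fewer UMIs than its partner. The smaller copy of each shared barcode was left out, 193 of 1996 barcodes in all, which left 283, 595 and 925 cells. The larger copies were kept, and the calls in each class are given below with them and, where a call or level changed, without them. The kept cells formed 17 clusters.

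The 3 classes with a name and 1 unnamed cluster below held at least 20 cells in every library and were compared. The first had 34 control cells and 92 and 71 Dox cells in clusters 6 and 11. Ceacam16, Gjb6, Gjb2, Rorb, Otog and Sox2 were among the 25 leading genes of cluster 6, and Epyc, Aqp4, Otogl and Gata3 among those of cluster 11. These are markers of supporting and sulcus cells in the floor of the cochlear duct, so the class is called floor epithelium-like. The second, of 28, 38 and 49 cells, had the glial genes Cdh19, Art3 and Foxd3 among its 25 leading genes and is called glia-like. The third, of 23, 46 and 25 cells, is called macrophage-like from C1qa, C1qb and Lyz2, although S100a8, a neutrophil gene, led it. Cluster 8, of 26, 30 and 39 cells of low depth, led with the heat shock genes Hspa1a and Hspa1b and was left unnamed. Fibroblast-like cells (116, 5 and 79) and pericyte-like cells (3, 114 and 67) were too unevenly spread for a comparison.

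UMIs of each class were summed per library and tested with edgeR's quasi-likelihood test over all genes, and a gene was called at a Benjamini-Hochberg adjusted p of 0.05 or less. Levels are given as CPM, the UMIs of a gene in every 1000000 UMIs, scaled by TMM, which sets libraries to a common level for most genes. With 1 control library the test has 1 residual degree of freedom and assumes that the control varies as the Dox libraries do. Nothing in the labels says how far the libraries are biologically independent, so the p-values measure the spread between libraries, which may be technical. Differences from the control, including those of handling or depth of that single library, cannot be told apart from the treatment.

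Notch1 checked the labels in the floor epithelium-like class, at 79.5 CPM in the control against 471 and 488 CPM with Dox, so its log2 fold change was 2.59 ± 0.21 (SE, edgeR adjusted p = 0.000229). Myc stood at 24.2, 46.0 and 57.5 CPM there and missed the threshold (1.08 ± 0.31, adjusted p = 0.0588). In the glia-like class both were called, Notch1 at 3.07 ± 0.44 (edgeR adjusted p = 0.000136) and Myc at 1.67 ± 0.48 (adjusted p = 0.0361). In the macrophage-like class neither was called, with Notch1 at 66.7, 176 and 162 CPM. The available sources do not say whether transgene transcripts are counted under these gene names.

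In the floor epithelium-like class 17 of the 51 initiation factor genes that passed the low-count filter were called higher with Dox, 1 was called lower and 33 were not called. That is 33.3% higher, where 6.40% of the 11070 genes tested were called higher and 6.03% lower. The median log2 fold change of the initiation factor genes was 0.59, against 0.02 for all genes tested. Both Dox libraries lay above the control for 44 of the 51 genes, and 43.4% of all genes tested did so. The 4 genes that did not pass the filter were Eif2c5, Eif4e1b, Eif4ebp3 and Eif5a2. Eif2c5 carries an old Argonaute-type name and is annotated as a long noncoding RNA, and neither it nor Eif4e1b had a UMI in any kept cell, while Eif4ebp3 had 0 in the control and 1 in each Dox library.

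The number of calls depended on the test and on the clustering. DESeq2 called 10 genes higher, all among the 17, and did not call Eif1a, Eif2a, Eif2s3x, Eif3b, Eif3d, Eif3j1 and Eif3m. When all named classes shared a fit 1 was called. When each library was clustered alone 0 were called, as when cells were thinned to 1000 UMIs, which left 27 genes to test. The shares of all genes called in these alternatives and in those below are not given here, so the counts cannot be set against them. The median was between 0.31 and 0.74 in the 19 alternatives run. A coarser clustering (resolution 0.5) and cluster 6 taken alone held the same numbers of cells and UMIs and gave the same values. They are counted as separate alternatives here and in the tallies for this class below.

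**Figure D1:**
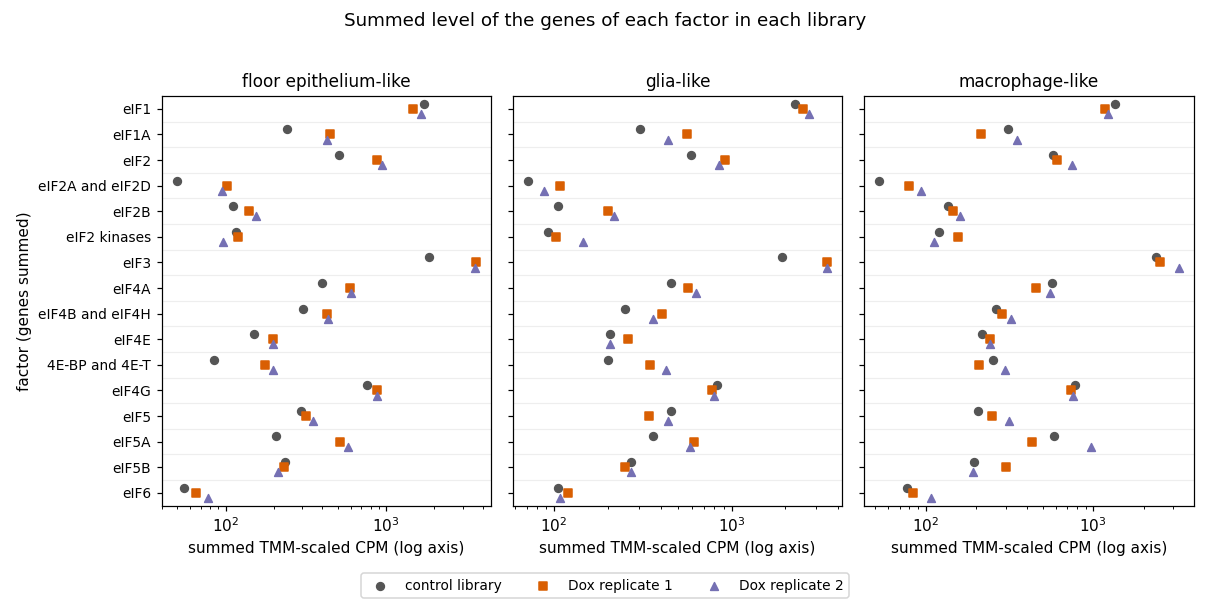
Summed level of the genes of each factor (TMM-scaled CPM, log axis) in the control library (grey circles), Dox replicate 1 (orange squares) and Dox replicate 2 (purple triangles) for 3 cell classes. In the floor epithelium-like class the eIF3 sum was 1856 CPM in the control against 3637 and 3589 CPM, while the eIF5B sum was 233, 231 and 213 CPM.

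The plot of factor sums shows that the factors did not move alike in the floor epithelium-like class. The 14 genes of eIF3 summed to 1856 CPM in the control and 3637 and 3589 CPM with Dox, a ratio of 1.96 and 1.93. The eIF5A sum had ratios of 2.49 and 2.80, and the sum of eIF2 ratios of 1.73 and 1.85. The eIF4G sum was 758 CPM in the control and 875 and 873 CPM with Dox (ratios 1.15 and 1.15), and eIF5 stood at 296, 315 and 349 CPM. The eIF2 kinases together had 116, 119 and 95.7 CPM, so the Dox libraries lay on both sides of the control. These sums are descriptions and were not tested.

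Promoters were compared because many of these genes rose together. The E-box letters CACGTG, which read the same on both strands and which MYC with its partner MAX is known to bind, were searched from 250 bases before to 50 bases after each RefSeq start (GRCm38.p6). They occurred in the promoters of 10 of the 43 matched initiation factor genes (23.3%), and in 8.09% of all 27025 tabled genes. Among the tabled genes tested in the floor epithelium-like class the share was 12.4%, and among those called higher there 15.2%. Of the 12 matched initiation factor genes that rose in the floor epithelium-like class 4 held the letters (33.3%), and of the 31 other matched genes 6 did (19.4%), Eif1b, which fell, among them. The following windows, from RefSeq and free of annotated exons, show the letters in capitals for the 4 genes that rose and for Eif4g1, which was not called.
Eif5a, chr11:69921428-69921487, minus strand: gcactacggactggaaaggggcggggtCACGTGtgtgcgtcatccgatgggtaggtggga
Eif3f, chr7:108934320-108934379, plus strand: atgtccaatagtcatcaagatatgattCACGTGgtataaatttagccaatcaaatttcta
Eif3k, chr7:28981900-28981959, minus strand: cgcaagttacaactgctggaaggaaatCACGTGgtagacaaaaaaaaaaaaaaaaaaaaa
Eif4a1, chr11:69672580-69672639, minus strand: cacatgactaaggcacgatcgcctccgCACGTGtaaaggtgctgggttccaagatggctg
Eif4g1, chr16:20672646-20672705, plus strand: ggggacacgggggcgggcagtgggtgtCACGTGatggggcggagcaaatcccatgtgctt
The first C of the letters lay 68 bases before the start in Eif3f, 44 in Eif3k, 189 in Eif4a1 and 54 in Eif4g1, and 74 and 185 bases before 2 of the starts of Eif5a. A match is a description of the letters and shows neither binding nor a cause.

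Of the 14 eIF3 genes, 9 rose in the floor epithelium-like class. Eif3h, which encodes a subunit outside the conserved core (chr15:51786558-51865523, minus strand, GRCm38), had 166 CPM in the control against 421 and 421 CPM with Dox, from 144, 1474 and 871 UMIs. Both Dox libraries were well above the control and close to each other (log2 fold change 1.34 ± 0.19, edgeR adjusted p = 0.00296). Without any shared barcode the change was 1.53 (adjusted p = 0.00177). Eif3e, a further scaffold subunit, had 137, 319 and 341 CPM (1.26 ± 0.19, adjusted p = 0.00475).

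Eif3f and Eif3k, also subunits of the scaffold, went from 317 to 686 and 661 CPM and from 175 to 415 and 382 CPM. The other eIF3 genes that rose had log2 fold changes between 0.91 and 1.11. Eif3i had 122, 255 and 274 CPM, Eif3j1 113, 232 and 218 CPM, and Eif3m 121, 220 and 237 CPM. Eif3b had 54.2, 118 and 111 CPM and Eif3d 40.3, 82.6 and 82.6 CPM. In each of these genes both Dox libraries lay above the control. The call of Eif3i was kept in 13 of 16 alternatives, that of Eif3m in 10 of 16 and that of Eif3j1 in 8 of 16. For Eif3b it was kept in 12 of 15 and for Eif3d in 10 of 15. Eif3b and Eif3i encode subunits of one module with Eif3g, yet Eif3g was not called (72.6, 89.4 and 87.4 CPM, 0.29 ± 0.22, edgeR adjusted p = 0.435). Eif3a, the largest subunit (237, 355 and 353 CPM, adjusted p = 0.0715), Eif3c (249, 358 and 346 CPM, adjusted p = 0.106) and Eif3l did not reach the threshold either. Eif3j2, a near copy of Eif3j1, had 2, 57 and 9 UMIs, which is 5.14-fold (exact 95% interval from counting, 1.37 to 43.4), and was not called. Reads of 2 near copies may be split between them by the counting, so their separate values are uncertain.

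Eif4ebp1, which encodes 4E-BP1, an inhibitor that binds eIF4E (chr8:27260329-27276674, plus strand, GRCm38), showed the widest difference of the initiation factor genes in the floor epithelium-like class. Its UMIs numbered 7 in the control against 288 and 205 with Dox, or 8.07, 82.3 and 99.0 CPM. The log2 fold change was 3.47 ± 0.37, an 11.1-fold rise (edgeR adjusted p = 0.000795). The call held in 14 of 15 alternatives that gave a test, with a lowest change of 2.89, and was lost when each library was clustered alone (adjusted p = 0.449). With both copies of every shared barcode left out the change was 2.89 (adjusted p = 0.00376). Eif4ebp2, a further 4E-BP gene, had 50.7, 65.2 and 67.6 CPM in the class and was not called (adjusted p = 0.321), and Eif4enif1, which encodes the eIF4E transporter, had 25.3, 28.6 and 31.9 CPM.

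The clusters joined in this class show the difference separately. In cluster 6 Eif4ebp1 had 1 UMI among 297854 control UMIs, against 125 and 42 UMIs with Dox. In cluster 11 it had 6 UMIs among 470210 of the control against 163 and 163 with Dox. Cluster 6 made up 23 of the 34 control cells but 25 of the 71 cells of Dox replicate 2, so the level of the class is a mix in other proportions in each library. On cluster 6 alone 17 initiation factor genes were called higher, 16 of them among the 17 of the whole class. Cluster 6 is part of the class and gave 2157223 of its 3791748 UMIs in Dox replicate 1, so this overlap is no separate support. The share of all genes called in that fit is not given here. Eif3j1 was lost (adjusted p = 0.0709 in edgeR), and Eif4ebp2 was gained, at 26.9 CPM (unscaled) in the control against 68.1 and 69.1 CPM with Dox.

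Of the 51 genes tested, 23 lay above the control in both Dox libraries within cluster 6 and within cluster 11. All 17 genes called higher in the class were among them, and Eif1b lay below the control in both clusters. The calls were made on the sum of these clusters, so this is no separate support. The share of all genes that did so is not given here. For 10 of the 51 genes, none of them called, the clusters went opposite ways, so their value for the class averages over the 2 clusters. Eif4ebp2 was one of these, at 76.6, 49.6 and 61.1 CPM (unscaled) in cluster 11. Eif1 was a further one, at 2233, 1106 and 1148 CPM in cluster 6 and 1425, 1501 and 1640 CPM in cluster 11. The others were Eif2b1, Eif2b2, Eif2b5, Eif2d, Eif3g, Eif4a3, Eif4e2 and Eif4g2. Cluster 11 held 11 control cells and was not tested alone.

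**Figure D2:**
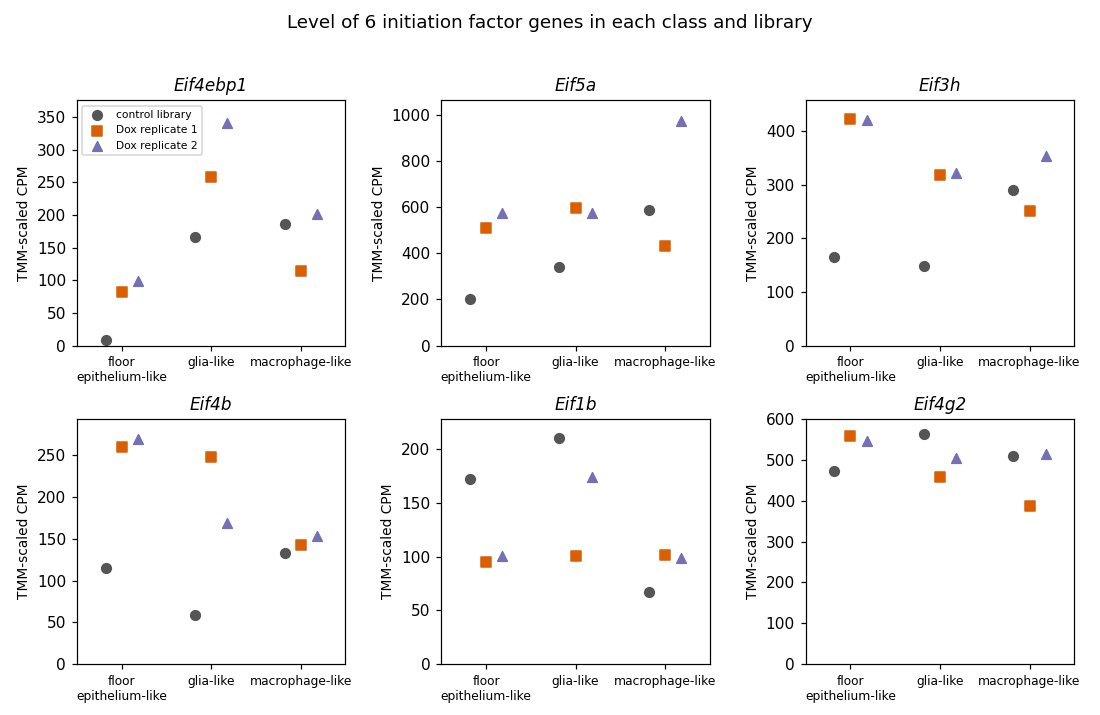
Level (TMM-scaled CPM, axis from 0) of 6 initiation factor genes in the control library (grey circles), Dox replicate 1 (orange squares) and Dox replicate 2 (purple triangles) for 3 cell classes. Eif4ebp1 was at 8.07 CPM in the floor epithelium-like control and at 167 and 186 CPM in the glia-like and macrophage-like controls.

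As the plot of 6 genes shows, the control value of Eif4ebp1 was 8.07 CPM in the floor epithelium-like class, with 167 CPM in the glia-like and 186 CPM in the macrophage-like control. In the glia-like class it had 259 and 341 CPM with Dox and was not called (0.84 ± 0.33, edgeR adjusted p = 0.131). In the macrophage-like class the Dox libraries lay on both sides of the control, at 114 and 202 CPM (adjusted p = 0.996), and both lay below a control of 237 CPM without shared barcodes (adjusted p = 0.737). A test of the difference itself, the Dox effect in the floor epithelium-like class minus the mean of the other 2 named classes, gave 3.13 ± 0.54 on the log2 scale with an adjusted p of 0.0619 in edgeR, so it missed the threshold.

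Eif5a, whose product carries the modified lysine hypusine (chr11:69916714-69921958, minus strand, GRCm38), had 204 CPM in the floor epithelium-like control and 510 and 573 CPM with Dox. It rose by 1.41 ± 0.19 on the log2 scale (2.65-fold, edgeR adjusted p = 0.00256), and by 1.21 without any shared barcode (adjusted p = 0.00352). Its paralog Eif5a2 had 49, 135 and 175 UMIs over all kept cells and did not pass the filter in this class. In the glia-like class Eif5a stood at 340, 596 and 574 CPM and was not called (adjusted p = 0.149). In the macrophage-like class the 2 Dox libraries differed from each other, at 429 and 973 CPM around a control of 587 CPM. Without shared barcodes that control stood at 252 CPM, below both Dox libraries (425 and 965 CPM, edgeR adjusted p = 0.304).

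Of the mRNA-binding factors, Eif4b and Eif4a1 rose in the floor epithelium-like class and the others did not pass the test. Eif4b, a partner that stimulates the helicase eIF4A (chr15:102073773-102097173, plus strand, GRCm38), had 115, 260 and 269 CPM (1.20 ± 0.20, edgeR adjusted p = 0.00639). Its relative Eif4h had 188, 169 and 164 CPM (adjusted p = 0.585). The helicase gene Eif4a1 had 114, 225 and 252 CPM (1.06 ± 0.20, adjusted p = 0.0126), whereas its paralog Eif4a2 had 248, 326 and 291 CPM (adjusted p = 0.312). The cap-binding protein gene Eif4e had 78.4, 97.7 and 103 CPM, and Eif4e2 had 66.8, 90.9 and 83.1 CPM, with adjusted p of 0.331 and 0.310. Of the eIF4G family, Eif4g2 was at 474, 558 and 546 CPM (adjusted p = 0.425), and Eif4g1 and Eif4g3 were not called either.

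Among the carriers of initiator tRNA, Eif2s2 (eIF2 beta) had 358, 631 and 676 CPM in the floor epithelium-like class (0.87 ± 0.17, edgeR adjusted p = 0.0139). Eif2s3x (eIF2 gamma) had 81.8, 143 and 136 CPM and passed narrowly (0.77 ± 0.21, adjusted p = 0.0480). Its call was lost in 8 of 16 alternatives, and with cells thinned to 1000 UMIs its value was -0.70 (adjusted p = 0.706). Eif2s1 (eIF2 alpha, the subunit that the kinases phosphorylate) had 71.4, 108 and 135 CPM and was not called (adjusted p = 0.0825). Eif2a, an alternative carrier of the initiator tRNA, had 38.0, 86.6 and 81.6 CPM (1.15 ± 0.24, adjusted p = 0.0187), but missed the threshold when both copies of shared barcodes were left out (adjusted p = 0.0508).

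None of the 5 eIF2B genes was called in the floor epithelium-like class. Their log2 fold changes ran from -0.19 (Eif2b4) to 0.75 (Eif2b3), and their sum was 112, 141 and 155 CPM. Eif2b5, the catalytic subunit, had 35.7, 38.0 and 51.7 CPM. None of the 4 eIF2 kinase genes was called. Eif2ak1, the heme-regulated kinase, had 18, 94 and 44 UMIs, or 20.7, 26.9 and 21.3 CPM. Eif2ak2, the kinase that responds to double-stranded RNA, had 71.4, 63.4 and 45.4 CPM (adjusted p = 0.420). Eif2ak3, the kinase of the endoplasmic reticulum, had 13, 24 and 14 UMIs, or 15.0, 6.86 and 6.76 CPM, below the control in both Dox libraries without passing the test (adjusted p = 0.202). Eif2ak4, which senses uncharged tRNA, had 8, 78 and 46 UMIs, or 9.22, 22.3 and 22.2 CPM, above the control in both (adjusted p = 0.0947).

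The start codon factors split. Eif1a had 120, 231 and 229 CPM in the floor epithelium-like class (0.94 ± 0.19, edgeR adjusted p = 0.0172), and its X-linked near copy Eif1ax had 111, 173 and 171 CPM (adjusted p = 0.0742). Eif1 had 1538, 1383 and 1549 CPM over the class (adjusted p = 0.798), which averages over clusters that went opposite ways, as given above. Its paralog Eif1b (chr9:120492232-120495330, plus strand, GRCm38) was the one initiation factor gene that fell, from 173 CPM to 94.9 and 100 CPM (log2 fold change -0.82 ± 0.19, adjusted p = 0.0262). The fall of Eif1b was called in 9 of 16 alternatives and not by DESeq2 (adjusted p = 0.286). Eif5, Eif5b and Eif6 were not called, with log2 fold changes of 0.16 ± 0.18, -0.07 ± 0.18 and 0.36 ± 0.24. Eif6 had 55.3, 65.4 and 77.3 CPM. The remaining genes with few UMIs, Eif1ad (10, 144 and 54 UMIs), Eif2d (10, 56 and 28), Eif4a3 (30, 144 and 119) and Eif4e3 (4, 31 and 24), were above the control in both Dox libraries without a call.

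Some of the called genes share their place in the genome with a counted gene on the opposite strand: Eif1b with D830035M03Rik, Eif2a with Serp1, Eif2s2 with a, Eif3d with Gm17638, Eif3j1 with Spg11, Eif3m with Ccdc73 and Eif4enif1 with Drg1. Eif1a and Eif1ax are near copies of each other. Whether the counting used strand was not stated, so the values of these genes are less certain than those of the others.

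**Figure D3:**
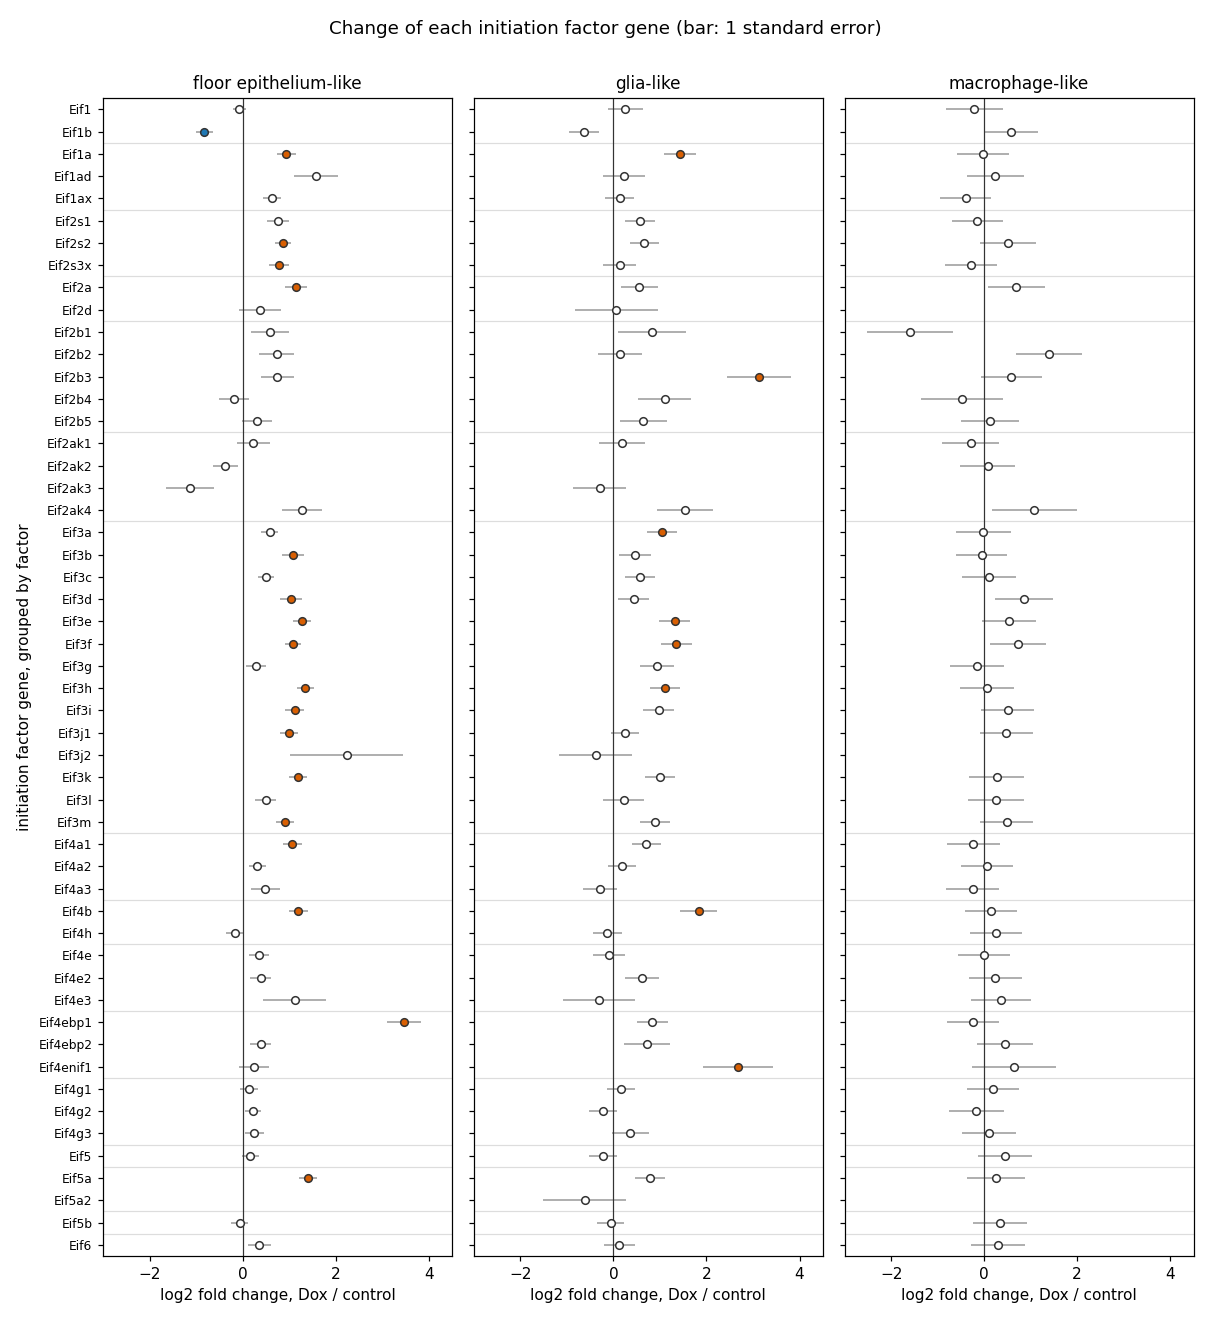
Log2 fold change of each initiation factor gene between Dox and control (points, with bars of 1 standard error) in 3 cell classes, grouped by factor. Orange points were called higher, the blue point was called lower and open points were not called: 17, 8 and 0 genes were called higher in the floor epithelium-like, glia-like and macrophage-like classes.

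Several other measures moved with the floor epithelium-like result. Of the 34 control cells, 10 were larger copies of shared barcodes, and without them the control UMIs fell from 768064 to 272857. With both copies left out 14 initiation factor genes were called higher, all among the 17, with log2 fold changes from 0.78 (Eif2s2) to 2.89 (Eif4ebp1), and Eif1b was called lower. The 3 lost calls were those of Eif2a, Eif2s3x (adjusted p = 0.244 in edgeR) and Eif3j1 (adjusted p = 0.0842). With both copies kept 13 were called, 12 of them among the 17. Cells with little Malat1 (a nuclear RNA, here under 10 in 10000 UMIs) made up 35.3%, 38.0% and 21.1% of the class, and 19 genes were called higher without them. The summed level of the class's own 24 markers, of which 3 were at 0 in the control, was 6943, 2096 and 2595 CPM (unscaled), so it was lower in both Dox libraries. The 20 fibroblast markers summed to 725, 127 and 375 CPM, with 13 at 0 in the control, and the 13 neutrophil-lineage markers, which include the epithelial gene Lcn2, to 7883, 2551 and 1086 CPM, with 10 at 0 in the control. The 21 markers of other epithelium summed to 15563, 7951 and 5731 CPM (4 at 0 in the control), the 21 glial markers to 1217, 415 and 385 CPM (9 at 0), the 13 otic fibrocyte markers to 513, 134 and 186 CPM (7 at 0) and the 12 hair cell markers to 812, 399 and 247 CPM (2 at 0), all lower in both Dox libraries. The median mitochondrial share of a cell's UMIs was 3.28%, 4.79% and 4.35%. The part of these differences in the result was not tested.

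Scaling by total count instead of TMM moved the median of all genes tested in this class by -0.28 and the share of higher among all calls from 51.5% to 28.4%. The initiation factor genes then had 14 higher calls and 1 lower call and a median of 0.31.

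In the glia-like class 8 of 51 initiation factor genes were called higher and 0 lower, where 3.63% of 7685 genes tested were called higher, 3.97% lower and 7.60% in either direction. DESeq2 called 0 in either direction, and 17 of the 51 had an unadjusted p of 0.05 or less in edgeR, as did 21.2% of all genes tested. The genes that rose were Eif1a, Eif2b3, Eif3a, Eif3e, Eif3f, Eif3h, Eif4b and Eif4enif1. The median log2 fold change was 0.46, against 0.02 for all genes, and 36 genes lay above the control in both Dox libraries (40.5% of all genes did).

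Eif4b had 58.8 CPM in the glia-like control and 248 and 169 CPM with Dox (1.83 ± 0.39, edgeR adjusted p = 0.00555). Both Dox values were above the control, with replicate 1 the higher. Eif3f had 179, 492 and 422 CPM (1.35 ± 0.33, adjusted p = 0.0136), Eif3e 102, 250 and 260 CPM, and Eif3h 149, 318 and 322 CPM. Eif3a, the largest eIF3 subunit, had 164, 351 and 324 CPM with an adjusted p of 0.0498 in edgeR, and that call was kept in 4 of 15 alternatives. Leaving out the 2% deepest cells, counted among the 4, removed no glia-like cell and so repeated the main fit. Clustering at resolution 2 and clustering with the members kept gave the same glia-like values and are counted separately among the 15. The eIF3 sum was 1918 CPM in the control and 3461 and 3433 CPM with Dox, ratios of 1.80 and 1.79.

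The calls of Eif2b3 and Eif4enif1 in the glia-like class rest on 2 control UMIs each. Eif2b3, a subunit of the eIF2B exchange factor, had 2, 40 and 30 UMIs, which is 9.04-fold (exact 95% interval from counting, 2.41 to 76.1). Eif4enif1 had 2, 28 and 23 UMIs, which is 6.59-fold (interval 1.73 to 55.9). Eif1a had 102, 313 and 239 CPM (1.44 ± 0.35, edgeR adjusted p = 0.0129). Eif1b, at 210, 101 and 174 CPM, was below the control in both Dox libraries without being called (adjusted p = 0.287), and Eif5 stood at 455, 340 and 436 CPM.

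The glia-like calls were fewer without shared barcodes. Of its cells, 1 of the control and 1 of Dox replicate 1 were larger copies, and without them 2 genes were called, Eif2b3 and Eif3e (adjusted p = 0.0442 in edgeR), with a median of 0.53 over the 51 genes. Eif3f (adjusted p = 0.0504), Eif4b (0.0586), Eif3h (0.0648), Eif1a (0.0706), Eif4enif1 (0.0970) and Eif3a (0.118) lost their calls, and these 6 genes kept a positive log2 fold change, the lowest being 0.95 (Eif3a). The control then held 0 UMIs of Eif2b3 against 36 and 30 with Dox, which is at least 5.31-fold higher when the control is set at 3 UMIs. One fit over all named classes called 0, and DESeq2's size factors gave 5. The class's 21 glial markers, 1 of them at 0 in the control, summed to 15158, 4362 and 6253 CPM, so they were lower in both Dox libraries, and what part this has in the result was not tested. Total count scaling moved the median of all genes by -0.24 and the share of higher among all calls from 47.8% to 30.7%, with 6 initiation factor genes called higher.

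In the macrophage-like class no initiation factor gene was called in either direction by edgeR, none of the 48 tested had an unadjusted p of 0.05 or less (8.21% of all genes did), and DESeq2 called 0, where 1.27% of 7742 genes were called higher by edgeR, 0.84% lower and 2.11% in either direction. The median log2 fold change was 0.22, against 0.05 for all genes, and 22 genes lay above the control in both Dox libraries (35.7% of all genes did). Of the 23 control cells 4 were larger copies of shared barcodes, and without them the control UMIs fell from 357357 to 137551. With both copies left out Eif1ad and Eif2b2 were called higher, each with 0 UMIs in the reduced control, and the median of the initiation factor genes was 0.37. With that control set at 3 UMIs the differences are at least 2.60-fold and 1.99-fold. With all control cells Eif1ad had 50.4, 37.1 and 77.7 CPM (unscaled), so the Dox libraries lay on both sides of the control. Eif2b2 then had 16.8, 56.9 and 27.9 CPM. Neither gene was called with all control cells, so the bounds hold only for the reduced control. The eIF3 sum was 2358, 2493 and 3224 CPM, and the sum of all 55 genes was 8035, 7859 and 9679 CPM, on both sides of the control. Without shared barcodes the eIF3 sum was 1732, 2466 and 3198 CPM and the sum of all 55 genes 6764, 7774 and 9600 CPM, both lowest in the control, so the position of the control rests on these 4 cells. Eif3h had 289, 251 and 353 CPM here (207, 248 and 350 CPM without shared barcodes), with a standard error of 0.58 against 0.19 in the floor epithelium-like class, and 3 cells held 50.6% of the control UMIs. The 18 macrophage markers summed to 25339, 27728 and 10979 CPM (unscaled) and the 13 neutrophil-lineage markers to 15117, 25481 and 17360 CPM. The 21 markers of other epithelium, with 16 at 0 in the control, were higher in both Dox libraries (548, 2371 and 2655 CPM). The 11 markers of bone or cartilage cells, with 9 at 0 in the control, were lower in both (3450, 1139 and 1081 CPM). The part of these differences in the values of the class was not tested.

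Cluster 8 had 32 initiation factor genes tested and none called by edgeR or DESeq2, with 4 at an unadjusted p of 0.05 or less (15.7% of all genes), where 1.19% of 2610 genes were called higher by edgeR, 2.30% lower and 3.49% in either direction. The lowest adjusted p was that of Eif4a1, at 5, 74 and 87 UMIs or 118, 702 and 631 CPM (2.49 ± 0.71, adjusted p = 0.0506), which was singled out after its values were seen. Eif2s2 had 13, 133 and 151 UMIs (adjusted p = 0.0556). Eif4ebp1 had 1, 27 and 30 UMIs, which is 9.95-fold (exact 95% interval from counting, 1.71 to 400). Notch1, whose control count was 0, was itself among the genes that lead this cluster, and cells with little Malat1 made up 57.7% of its control cells and 16.7% and 10.3% of its Dox cells. The 21 glial markers summed to 6263, 1442 and 2947 CPM (unscaled) in this cluster. The 13 otic fibrocyte markers, with 7 at 0 in the control, were also lower with Dox (1492, 156 and 83.1 CPM). The 21 markers of other epithelium, with 17 at 0 in the control, were higher (92.1, 764 and 2844 CPM). The part of these differences in the values of the cluster was not tested. Total count scaling moved the share of higher among all its calls from 34.1% to 65.7% and the median of all genes by 0.24, with 3 initiation factor genes called higher, and DESeq2's size factors gave a share of 15.4%.

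Over all kept cells 27 of 52 genes were called higher and 1 lower (Eif1b), where 10.1% of 15421 genes were called higher and 8.33% lower. Of the 14 eIF3 genes 12 were among them. The eIF5A sum was 299 CPM in the control and 743 and 993 CPM with Dox, and the eIF3 sum was 1938, 3617 and 3954 CPM. The eIF2 kinases (113, 111 and 102 CPM together) had no call. This sum mixes cell types whose shares differed between libraries, and the cycling clusters 7, 9 and 12 held 0 control cells. Total count scaling gave 17 higher calls and moved the median of all genes by -0.29 and the share of higher among all calls from 54.9% to 30.8%.

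Whether the Dox effect differed between the named classes was tested in one fit with library as a block. No initiation factor gene passed in any of the 3 classes, where 0.10% of 10975 genes did so in the floor epithelium-like class and 0.00% in the glia-like and macrophage-like classes. At an unadjusted p of 0.05 or less there were 1, 4 and 7 initiation factor genes for the floor epithelium-like, glia-like and macrophage-like classes, of 52 tested, where 7.06%, 5.73% and 8.34% of all genes did so. The data therefore do not show that a change of an initiation factor gene was particular to a class.

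Other genes of the pathway were counted from lists of helpers, regulators and later steps, to be read against the shares of all genes called higher (6.40% in the floor epithelium-like and 3.63% in the glia-like class). Of 21 tested helpers of scanning and initiation without an Eif symbol, 5 rose and 0 fell in the floor epithelium-like class: Pabpc1 and Pabpc4, which bind the poly(A) tail, Bzw2, an eIF5 mimic, Rack1, a ribosomal scaffold, and Ybx1, an mRNA-binding protein. Rack1 had 592, 2026 and 2106 CPM (1.80 ± 0.15, edgeR adjusted p = 0.000290) and Bzw2 33.4, 151 and 169 CPM. In the glia-like class 4 of 21 rose (Pabpc1, Pabpc4, Bzw2 and Rack1). Of 13 tested elongation and termination factors 6 rose in the floor epithelium-like class, among them Eef1b2 (669, 3343 and 2721 CPM) and Eef1a1 (2742, 6756 and 6802 CPM), and in the glia-like class 4 of 11. In the floor epithelium-like class the median log2 fold change was 0.35 for the helpers and 0.64 for the elongation and termination factors. In the glia-like class these medians were 0.20 and 1.15, against 0.02 for all genes in each class. Of the 4 genes of eIF5A hypusination and mitochondrial initiation 0 were called in the floor epithelium-like class, and of 3 tested in the glia-like class 0.

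For the regulators upstream, 12.4% of all genes tested in the floor epithelium-like class were called in either direction, so counts of 0 or 1 in lists of this size are near that share. Of 13 tested kinases, phosphatases and inhibitors acting on eIF4 and eIF2, 0 were called in the floor epithelium-like class, and of 23 mTORC1 pathway genes 0 rose and 1 fell, Tbc1d7, a subunit of the TSC complex that restrains mTORC1 (47.2, 17.4 and 15.0 CPM, edgeR adjusted p = 0.0143). Of 18 mTORC1 pathway genes tested in the glia-like class 1 rose and 1 fell. There 7.60% of all genes were called in either direction, so these counts are near that share too. Ddit4, an mTORC1 inhibitor, rose (43.3, 217 and 131 CPM) and Sesn3, of the sestrin family of mTORC1 inhibitors, fell (118, 42.9 and 41.7 CPM). Targets of ATF4, the factor made when eIF2 is phosphorylated, had a median log2 fold change of 1.44 over 13 tested genes in the floor epithelium-like class. Of these, 4 rose (Asns, Nupr1, Phgdh and Atf4, the gene of the factor itself, which was on the list) and 1 fell (Vldlr). Asns had 6, 104 and 56 UMIs, Phgdh 9.22, 44.6 and 74.9 CPM, and Nupr1, itself among the leading genes of cluster 11, 112, 443 and 767 CPM. In the glia-like class the median of this list was 1.08 over 13 tested genes, of which 2 rose (Asns and Nupr1) and 0 fell. Over all kept cells 3 of 15 ATF4 targets rose and 3 fell, with a median of -0.16. In the macrophage-like class edgeR called 0 genes of these lists. In cluster 8 it called 0 of them higher. There Eef1a1 fell (6453, 3243 and 3837 CPM, edgeR adjusted p = 0.0420), 1 of 9 tested elongation and termination factors, whose median was -0.21. Cebpb fell too (1719, 493 and 435 CPM, adjusted p = 0.0282), 1 of 7 tested ATF4 targets, whose median was 1.28. Of all genes tested in cluster 8, 2.30% were called lower.

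**Figure D4:**
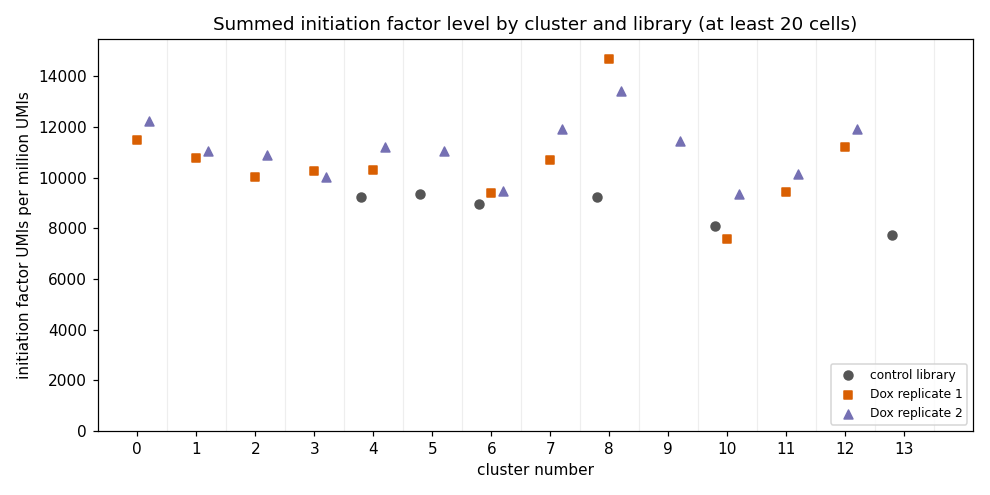
Summed CPM (unscaled) of all 55 initiation factor genes in each cluster with at least 20 cells of a library: control library (grey circles), Dox replicate 1 (orange squares) and Dox replicate 2 (purple triangles). The 6 control values lie between 7725 and 9348, and in cluster 10, the macrophage-like cells, Dox replicate 1 lies at 7586, below the control at 8087.

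Across clusters, the plot of summed levels by cluster shows 6 control values from 7725 (cluster 13, fibroblast-like) to 9348 (cluster 5, fibroblast-like) CPM. In the 4 compared clusters with values of all libraries the Dox libraries were higher in cluster 4 (9252 in the control against 10289 and 11225), cluster 6 (8964 against 9382 and 9474) and cluster 8 (9229 against 14672 and 13410), and on both sides of the control in cluster 10 (8087 against 7586 and 9368). These values are unscaled shares of all UMIs and were not tested.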

How the data were processed

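The authors deposited UMI counts, 1 filtered matrix for each library of 10x 3′ chemistry v3.1. The submitters' processing notes name Cell Ranger 5.0, STAR, Seurat 3.2.2 and mm10 (GRCm38), and the matrix header names software version 3.1.0. The handling of intronic reads was not stated.

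Barcodes needed 200 genes and no more than 20% of UMIs from mitochondria, and of a barcode found in several libraries only the copy with most UMIs was kept. The last rule was chosen after the shared barcodes and the class sizes had been seen and before any initiation factor gene was tested. Cells were clustered with scanpy 1.11.5 (2000 variable genes less the members, 30 components, 15 neighbours, Leiden resolution 1). A cluster took a name with at least 3 markers among 25 leading genes. No doublet caller was run. The 2% deepest cells were left out in an alternative.

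Counts were summed per class and library and tested with edgeR 4.0.16 (TMM, filterByExpr, quasi-likelihood, Benjamini-Hochberg over all genes). DESeq2 1.42.0 was an alternative. Unscaled levels are UMIs in every 1000000. Intervals are exact at 95% and cover counting error only. Gene positions are from GENCODE M21. Members called in any class, the top member of each factor, the 4E-BP and kinase genes and up to 3 genes per list were named. Members and lists were chosen with earlier results of these data known.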

Additional observations from a re-analysis of the deposited data

Results flagged for a closer look

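Initiation factor genes were also counted in clusters that entered no comparison, because they held fewer than 20 cells in at least 1 library. The highest level in any cluster of the control library with at least 20 cells was 9348 CPM (cluster 5, unscaled), and the following levels in Dox libraries lay above it. Cluster 0, which was left unnamed, had 11500 CPM in Dox replicate 1 and 12251 in replicate 2. Cluster 1, led by Wfdc18 and Gabrp, had 10764 and 11045. The Reissner membrane-like cluster 2 had 10015 and 10910, and the pericyte-like cluster 3 had 10247 and 10039. The fibroblast-like cluster 5 had 11048 in Dox replicate 2. Cluster 7, led by the proliferation gene Mki67, had 10679 and 11902. Of the other clusters with histone genes among their leading genes, cluster 9 had 11434 in Dox replicate 2, and cluster 12 had 11196 and 11903. Cluster 5 had 29 control cells but 5 cells in Dox replicate 1, and the other clusters had between 0 and 18 control cells, so no comparison was made.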

How the results depend on the processing

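No paired analysis was possible because the groups share 1 replicate number only, the control having 1 library. Medians of the initiation factor genes kept their sign in all alternatives run, from 0.31 to 0.74 in the floor epithelium-like, 0.22 to 0.60 in the glia-like, 0.09 to 0.37 in the macrophage-like class, 0.32 to 1.21 in cluster 8 and 0.51 to 0.93 over all cells, with each Dox library left out among them (values with no test). In the floor epithelium-like class the 17 higher calls became 10 with DESeq2, 1 with all named classes in 1 fit, 0 with cells thinned to 1000 UMIs and 0 with each library clustered alone. The 1 lower call became 0 in each of these and with the strict cell filter, with members kept for clustering and with smaller copies kept. The 8 glia-like calls became 5 with DESeq2 size factors, 0 with DESeq2, 0 in 1 fit, 1 when thinned and 2 with both copies left out. The macrophage-like count rose from 0 to 1 without the 2% deepest cells and to 2 with both copies left out. Cluster 8 gave 3 with total count scaling and 2 with no low-count filter. Over all cells 27 became 17 with total count scaling, and the 1 lower call became 0 with DESeq2 size factors, DESeq2, thinning, little-Malat1 cells left out and either treatment of copies. Eif2s3x turned to -0.70 when cells were thinned. The cause was not tested, except that thinning left fewer genes to test. Shares of all genes called are not given for these alternatives, so the counts cannot be set against them. Resolution 0.5 gave the same floor epithelium-like calls and values as cluster 6 alone. DESeq2 gave no adjusted p for Eif4enif1 in the glia-like class. The treatments of shared barcodes and cluster 6 alone were chosen after seeing the data. The strict filter left under 20 macrophage-like control cells and was not run there.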
